A study of Mus musculus with 4 samples.

Results

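The Ikaros zinc finger family of the mouse comprises 5 genes, Ikzf1 (Ikaros), Ikzf2 (Helios), Ikzf3 (Aiolos), Ikzf4 (Eos) and Ikzf5 (Pegasus). The members were taken by gene symbol, and all 5 were present among the 24411 genes of the count table. Messenger RNA was measured by RNA sequencing in pro-B cells, early B cell precursors sorted from C57BL/6 bone marrow as cells positive for B220, CD43 and HSA (CD24). All 4 mice carried mb1Cre, which expresses the Cre recombinase from the B-lineage locus Cd79a. The control mice (numbers 55 and 69) were Tnpo3+/+ mb1Cre and the knockout mice (numbers 51 and 63) were Tnpo3fl/fl mb1Cre, with 2 mice per genotype and 1 library per mouse. Tnpo3 encodes transportin 3, which carries splicing factors rich in serine and arginine into the nucleus. The sources used here give no age for the mice.

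Ikaros family proteins are transcription factors. Zinc fingers near the amino terminus bind DNA, and a pair of fingers at the carboxyl terminus joins family members into dimers, so that the members can pair with one another. Ikaros acts from early lymphoid progenitors onward and is needed for the B lineage, and Aiolos rises as B cell precursors mature. Helios is known from early progenitors and T cells, Eos from regulatory T cells, and Pegasus is the most divergent member, with broad expression. Much of their action runs through the NuRD complex, a chromatin remodelling and histone deacetylase assembly.

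To show how alike the members are and whether reads of one could be counted for another, their annotated coding sequences were compared (GENCODE M21, GRCm38). The longest stretch of identical coding bases in any pair was 26 bases, between Ikzf1 and Ikzf3. It lies near the 3′ end of the coding sequence, in the region that encodes the carboxyl-terminal fingers. The lines below give a window of 90 coding bases around it, 5′ to 3′ on the coding strand, from Ikzf1 at chr11:11769451-11769540 (plus strand, exon 9 of 9), Ikzf2 at chr1:69538803-69538892 (minus strand, exon 8 of 8), Ikzf3 at chr11:98467027-98467116 (minus strand, exon 8 of 8), Ikzf4 at chr10:128634083-128634172 (minus strand, exon 8 of 8) and Ikzf5 at chr7:131391672-131391761 (minus strand, exon 4 of 4). In Ikzf1 the capitals mark the 26 bases shared without a break with Ikzf3, and in the other members they mark every base identical to Ikzf1.
Ikzf1: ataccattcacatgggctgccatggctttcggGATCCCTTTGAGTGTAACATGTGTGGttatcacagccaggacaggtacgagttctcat
Ikzf2: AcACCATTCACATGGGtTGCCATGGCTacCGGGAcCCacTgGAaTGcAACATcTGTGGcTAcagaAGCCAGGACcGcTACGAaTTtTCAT
Ikzf3: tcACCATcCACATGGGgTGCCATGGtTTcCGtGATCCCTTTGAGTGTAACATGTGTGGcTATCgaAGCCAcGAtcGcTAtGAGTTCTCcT
Ikzf4: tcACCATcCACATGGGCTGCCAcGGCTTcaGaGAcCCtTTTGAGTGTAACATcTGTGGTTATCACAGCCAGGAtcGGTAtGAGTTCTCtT
Ikzf5: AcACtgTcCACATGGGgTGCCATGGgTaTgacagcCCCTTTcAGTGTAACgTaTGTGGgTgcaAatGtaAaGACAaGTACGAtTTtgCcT

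In this window 84.4% of the bases of Ikzf4, 82.2% of Ikzf3, 77.8% of Ikzf2 and 66.7% of Ikzf5 were those of Ikzf1. Over whole annotated transcripts the longest stretch identical between any pair of members was 32 bases, between Ikzf2 and Ikzf4, and 0 stretches of 50 bases were shared. A read that matches 50 or more bases of a transcript exactly thus belongs to 1 member only. The sources used here give no read length.

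The libraries held 26211372 to 40647384 counts. Tnpo3, the targeted gene, was at 159 and 148 CPM in the controls and at 79.7 and 68.8 CPM in the knockouts (CPM, counts over the library total after TMM scaling). It fell by 1.05 ± 0.14 on the log2 scale (SE, adjusted p of 0.0108 by edgeR), and missed the threshold without knockout 63 (0.0603). Whole-gene counts do not show which exons the remaining reads came from. In the edgeR quasi-likelihood test of knockout against control, 22.2% of the 13507 genes tested passed at an adjusted p under 0.05, with 11.3% higher and 10.9% lower in the knockout. Of the family, 4 members had enough counts to be tested and Ikzf4 did not. Ikzf2 rose, Ikzf3 fell, and Ikzf1 and Ikzf5 did not pass. The median log2 fold change of the 4 tested members was -0.28, against -0.02 over all genes tested. Each library came from its own mouse, so the tests measure the spread between animals. In sorted bulk cells, fewer cells of a type and less RNA per cell cannot be told apart.

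**Figure D1:**
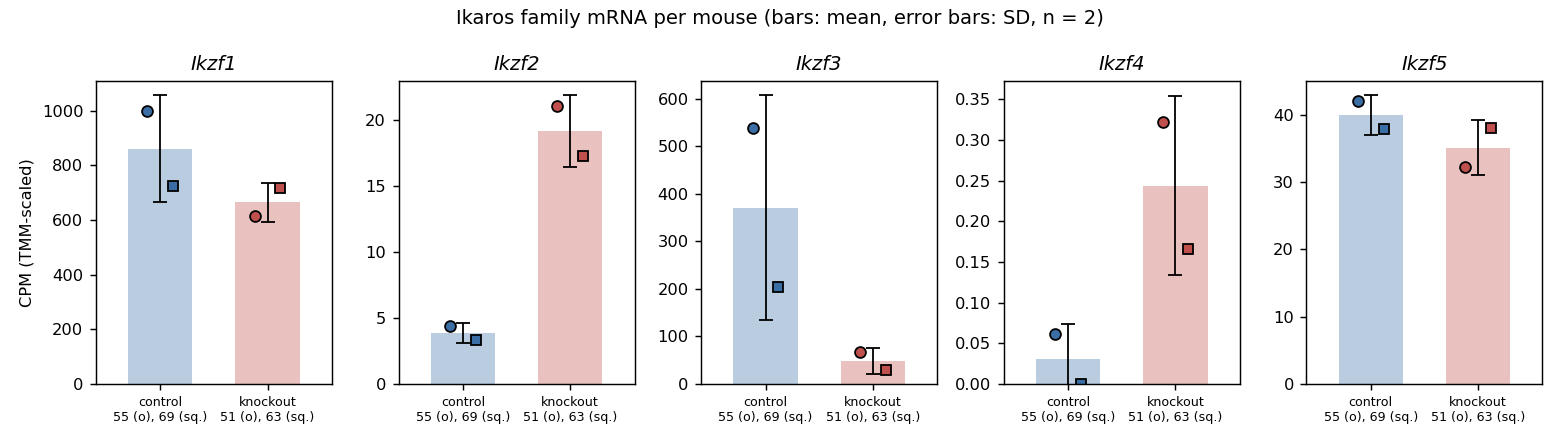
Level of each family member (y axis, CPM after TMM scaling, from 0) in the 2 control mice (blue; 55 circle, 69 square) and the 2 knockout mice (red; 51 circle, 63 square), with bars for the mean and error bars for the SD. Ikzf2 lies near 4 CPM in both controls and near 20 CPM in both knockouts, Ikzf3 is lower in both knockouts than in either control, and the vertical scales differ between panels.

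Ikzf1, at chromosome 11, 11685003 to 11772926 (plus strand, GRCm38), encodes Ikaros. It was at 999 CPM in control 55 and 723 CPM in control 69, against 614 CPM in knockout 51 and 715 CPM in knockout 63. Control 55 stood above the other 3 mice, and control 69 and knockout 63 were nearly equal, so the groups were separated by a narrow margin. More Ikzf1 mRNA was present than that of 99.1% of the genes tested, per gene and without regard to length. The means were 861 ± 195 CPM in controls and 665 ± 71.4 CPM in knockouts (SD, n = 2). The log2 fold change was -0.37 ± 0.22 (SE), with a 95% interval of -0.93 to 0.19 and an adjusted p of 0.28 by edgeR. Without control 55 it was -0.09. Ikaros is known to be made in splice forms that differ in the fingers that bind DNA, and the annotation holds 6 Ikzf1 transcripts. Whole-gene counts do not separate them.

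Ikzf3, at chromosome 11, 98464902 to 98546031 (minus strand), encodes Aiolos. It was at 538 CPM in control 55 and 204 CPM in control 69, against 67.3 CPM in knockout 51 and 27.9 CPM in knockout 63. Both knockouts lay below both controls, and within each genotype 1 mouse held far more Ikzf3 than the other. The log2 distance was 1.40 between the controls and 1.27 between the knockouts, wider than for 95.2% and 94.4% of the genes tested. The means were 371 ± 236 CPM in controls and 47.6 ± 27.8 CPM in knockouts (SD, n = 2). Ikzf3 fell by 2.96 ± 0.62 on the log2 scale (SE), which is 7.77-fold, with a 95% interval of -4.51 to -1.40 and an adjusted p of 0.0281 by edgeR. Its fall was deeper than the log2 fold change of all but 2.84% of the genes tested.

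The size of the Ikzf3 fall depended on single mice. The log2 fold change was -2.06 without control 55, -3.49 without control 69 and -3.73 without knockout 51, with adjusted p-values of 0.0142, 0.00124 and 0.0248 by edgeR. Without knockout 63, the mouse with the least Ikzf3, it was -2.46 and no longer passed (adjusted p of 0.0618).

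Ikzf2, at chromosome 1, 69531214 to 69687245 (minus strand), encodes Helios. It was at 4.40 CPM in control 55 and 3.35 CPM in control 69, against 21.1 CPM in knockout 51 and 17.3 CPM in knockout 63. The groups were well apart. The log2 distance was 0.39 between the controls and 0.29 between the knockouts, wider than for 62.7% and 60.5% of the genes tested. The counts behind the Ikzf2 levels were 144 and 89 in the controls and 852 and 520 in the knockouts. The means were 3.87 ± 0.75 CPM in controls and 19.2 ± 2.72 CPM in knockouts (SD, n = 2). Ikzf2 rose by 2.31 ± 0.28 on the log2 scale (SE), a 4.94-fold difference with a 95% interval of 1.61 to 3.0 on the log2 scale and an adjusted p of 0.00861 by edgeR. It passed in each of the 12 other ways of processing, at log2 fold changes of 2.12 to 2.55. Even so, 66.9% of the genes tested had a higher mean level than Ikzf2, counted per gene.

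Ikzf4, at chromosome 10, 128630843 to 128645991 (minus strand), encodes Eos. It had 2 and 0 counts in controls 55 and 69 and 13 and 5 counts in knockouts 51 and 63. These are traces, at 0.322 CPM or less in each mouse, where 3 counts correspond to 0.0743 to 0.113 CPM. The ratio of summed counts, knockout to control, was 7.57 with an exact 95% counting interval of 1.81 to 67.3, which covers counting error only and not the spread between mice. Where it could be tested with other filters or fewer libraries, its adjusted p was 0.253 to 0.467 by edgeR or DESeq2. Foxp3, the defining factor of the regulatory T cells in which Eos is known, was at 0.0752 to 0.133 CPM in the 4 mice.

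Ikzf5, at chromosome 7, 131388652 to 131410521 (minus strand), encodes Pegasus. It was at 42.0 CPM in control 55 and 37.9 CPM in control 69, against 32.3 CPM in knockout 51 and 38.0 CPM in knockout 63, so the genotypes overlapped. Its log2 fold change came to -0.19 ± 0.18 (SE), with a 95% interval of -0.63 to 0.25 and an adjusted p of 0.483 by edgeR. This interval holds changes of the size measured for Ikzf1, but not those of Ikzf2 or Ikzf3. Of the 5721 exon bases of Ikzf5, 4652 also lie in annotated exons of Pstk on the opposite strand. The sources used here give no strand setting for the counting, so reads of this pair cannot be told apart. Pstk, a kinase gene of selenocysteine tRNA, was at 7.61 and 6.46 CPM in the controls and at 5.25 and 7.87 CPM in the knockouts. Exons of Ikzf1 and Ikzf3 overlapped those of 0 other annotated genes, and those of Ikzf2 and Ikzf4 overlapped an antisense or intergenic RNA gene by 144 and 37 bases.

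**Figure D2:**
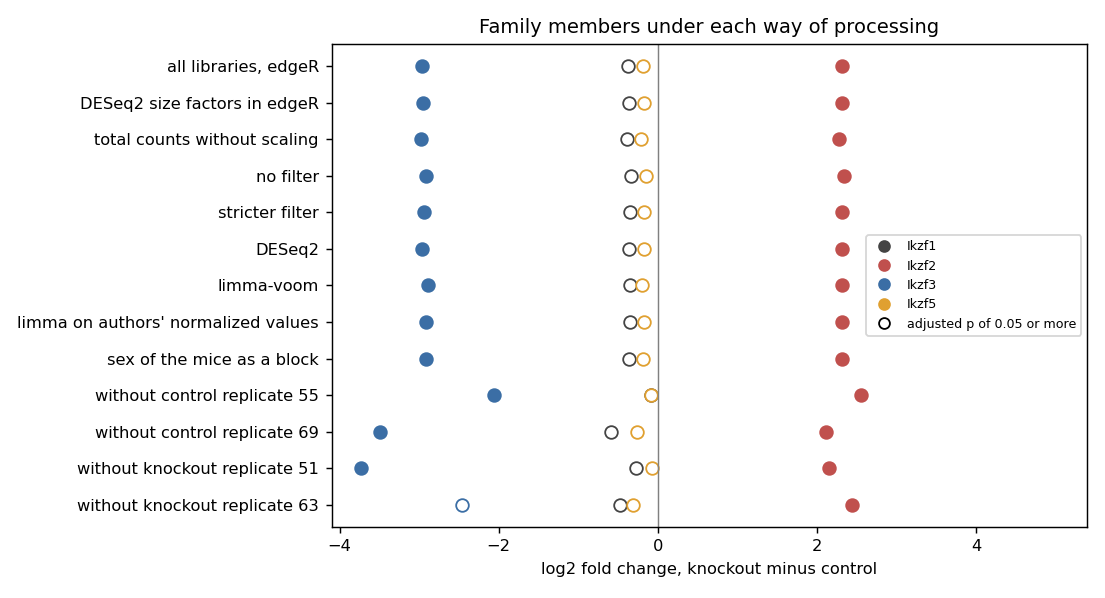
Log2 fold change, knockout minus control (x axis), of the 4 tested members under each way of processing (rows); filled points have an adjusted p under 0.05 and open points do not. Ikzf2 stays between 2.12 and 2.55 and Ikzf3 between -3.73 and -2.06, with its only open point where knockout 63 is left out.

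To set the members beside one another, CPM were divided by the length of each gene's annotated exons. In controls Ikzf1 was the most abundant at 149 ± 33.8 CPM per kb, followed by Ikzf3 at 42.3 ± 27.0, Ikzf5 at 6.99 ± 0.51, Ikzf2 at 0.334 ± 0.064 and Ikzf4 at 0.0102 and 0 CPM per kb (SD, n = 2). Each control mouse showed this order. In knockouts Ikzf1 was again the highest, at 115 ± 12.4 CPM per kb. Ikzf3, at 5.44 ± 3.18, and Ikzf5, at 6.14 ± 0.71, were not separated there, since Ikzf3 was the higher in knockout 51 (7.69 against 5.64) and Ikzf5 in knockout 63 (6.64 against 3.19). Ikzf2 followed at 1.65 ± 0.23 CPM per kb. Of the 5721 exon bases used for Ikzf5, 4652 are shared with Pstk, and how reads there were counted is not given. The level of Ikzf5 per kb and its place beside Ikzf3, in controls and knockouts, could therefore differ from those above.

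As a share of the family's summed level per kb, Ikzf3 was 25.4% in control 55, 14.98% in control 69, 6.32% in knockout 51 and 2.36% in knockout 63. Ikzf1 was 71.4% and 80.6% in the controls and 87.5% and 91.6% in the knockouts. Ikaros mRNA thus made up more of the family in both knockouts, while its own level was not higher there. Ikzf2 was 0.157% and 0.186% in the controls and 1.495% and 1.099% in the knockouts. The summed level was 242 and 155 CPM per kb in the controls and 122 and 135 in the knockouts. With 2 mice per genotype an exact permutation test cannot go below a two-sided p of 0.333, so the shares are given without a test. They depend on the length used: with the longest transcript of each gene the mean share of Ikzf3 was 29.7% in controls and 7.05% in knockouts. They also depend on how reads in the exon bases shared by Ikzf5 and Pstk were counted, which is not known.

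**Figure D3:**
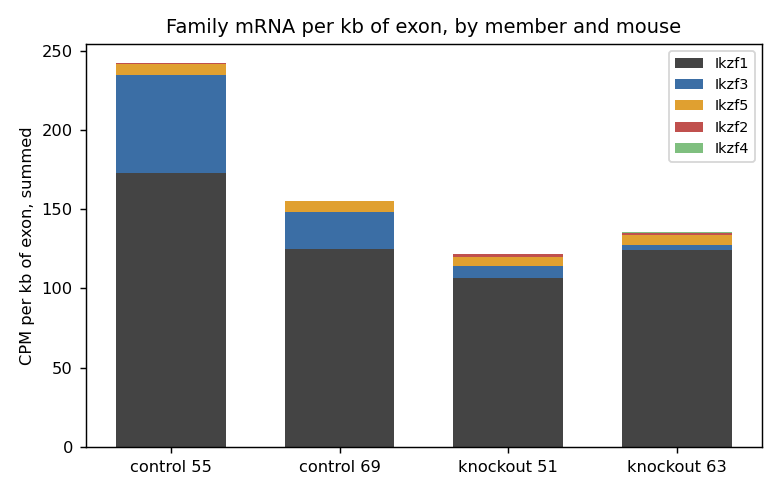
Summed level of the 5 members (y axis, CPM per kb of exon) in each mouse (x axis), stacked by member. The blue Ikzf3 part is 61.4 CPM per kb in control 55, 23.3 in control 69, 7.69 in knockout 51 and 3.19 in knockout 63, while the Ikzf1 part makes up most of every bar and Ikzf4 is too small to see.

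The partners of the family were then examined. Of 13 genes of the NuRD complex, 0 passed in either direction in edgeR, against 22.2% of all genes tested, and 0 by DESeq2 or limma-voom. An unadjusted p under 0.05 by edgeR was found for 2 of the 13, against 5107 of the 13507 genes tested. The median log2 fold change of the complex was 0.02. With the sex of each mouse in the model, 1 gene passed as higher (Mta3, adjusted p of 0.0304 by edgeR) and 2 as lower (Chd3, 0.0358, and Gatad2b, 0.0488). In that setting 2137 of all 13507 genes tested passed as higher and 2186 as lower. The catalytic remodeller Chd4 was at 558 and 619 CPM in the controls and at 533 and 484 CPM in the knockouts. The deacetylase genes Hdac1 and Hdac2 had log2 fold changes of 0.02 ± 0.13 and -0.001 ± 0.14 (SE). The lowest adjusted p-values of the complex were those of the scaffold genes Gatad2b (-0.51 ± 0.17, adjusted p of 0.0898) and Mta3 (0.55 ± 0.21, 0.129), the remodeller Chd3 (-0.43 ± 0.20, 0.179) and Mta1 (0.40 ± 0.23, 0.254). Mta1 and Mta3 passed without control 69 (0.75 and 0.86 on the log2 scale).

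Of 4 genes of other corepressors that Ikaros binds, 0 passed in edgeR, against 22.2% of all genes tested. By the same test 2 had an unadjusted p under 0.05, against 5107 of the 13507 genes tested. Ctbp2 was at 4.80 and 7.52 CPM in the controls and at 10.4 and 13.0 CPM in the knockouts, with a log2 fold change of 0.93 ± 0.33 (SE) and an adjusted p of 0.099 by edgeR, and of 0.0394 by DESeq2. The scaffold genes Sin3a and Sin3b were at -0.38 and -0.32 and Ctbp1 at -0.22 on the log2 scale. Drugs of the thalidomide class lead to the breakdown of Ikaros and Aiolos protein through the cereblon ubiquitin ligase. Of 5 genes of this ligase, 0 passed in edgeR, against 22.2% of all genes tested. In the same fit 0 of them had an unadjusted p under 0.05, against 5107 of the 13507 genes tested. DESeq2 and limma-voom also called 0. Log2 fold changes ran from -0.30 for the scaffold gene Cul4b to 0.14 for the adaptor gene Ddb1, and Crbn, the substrate receptor, was at -0.21 ± 0.20. Trps1, a gene outside the family whose product has fingers of the Ikaros type at its carboxyl terminus, was at 14.6 and 15.4 CPM in the controls and at 9.12 and 8.53 CPM in the knockouts (adjusted p of 0.0628 by edgeR).

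Genes known to respond to the family in B cell precursors were taken as a pair of lists, chosen with earlier results of these data known. Of 5 genes known to need Ikaros for full expression, 5 fell, against 10.9% of all genes tested. The recombinase gene Rag1 went from 1957 and 1933 CPM in the controls to 474 and 305 CPM in the knockouts, and Rag2 from 148 and 233 to 59.1 and 42.8 CPM. Foxo1, a factor that activates the Rag genes, went from 375 and 384 to 146 and 137 CPM. Syk, a kinase of the pre-B cell receptor, was at 1927 and 1197 CPM in the controls and at 528 and 572 CPM in the knockouts. The adaptor gene Blnk fell by 0.90 ± 0.17 on the log2 scale (SE). With either knockout left out, fewer of all genes tested were called lower, and Syk and Blnk did not pass. Their log2 fold changes were -1.45 and -0.91 without knockout 51 and -1.56 and -0.89 without knockout 63. Genes known to need Ikaros are also part of the B-lineage program. Of 10 pro-B markers, Rag1 among them, 7 fell in the same libraries.

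Of 5 genes known to be repressed by Ikaros or Aiolos, 0 passed in edgeR, against 22.2% of all genes tested. By the same test 2 had an unadjusted p under 0.05, against 5107 of the 13507 genes tested. The log2 fold changes of the 5 had no common direction. Myc, a growth regulator, was at 83.1 and 127 CPM in the controls and at 166 and 165 CPM in the knockouts, with a log2 fold change of 0.66 ± 0.22 (SE) and an adjusted p of 0.0898 by edgeR. Vpreb1, part of the surrogate light chain, was at 260 and 792 CPM in the controls and at 228 and 152 CPM in the knockouts (-1.47 ± 0.54, adjusted p of 0.108). Both passed in 3 alternatives: with DESeq2 (adjusted p-values of 0.0481 for Myc and 0.0139 for Vpreb1), without a filter in edgeR (0.0446 and 0.0467) and with the sex of each mouse in the edgeR model (0.0306 and 0.0146). Igll1, its other component, was at -0.88 ± 0.52 and the integrin gene Itga5 at -0.52 ± 0.45 on the log2 scale. In the controls Vpreb1, Igll1 and Itga5 were each far higher in mouse 69 than in mouse 55, the reverse of Ikzf3. Igll1 was at 990 against 326 CPM and Itga5 at 69.7 against 28.0 CPM. Between the knockouts these 3 genes ran in the same order as Ikzf3, higher in mouse 51 than in mouse 63. There Igll1 was at 419 against 295 CPM and Itga5 at 40.2 against 27.8 CPM. Cdk6, also on the list, had the same order, at 56.8 against 23.7 CPM in controls 69 and 55. In knockouts 51 and 63 it was at 48.9 against 34.1 CPM. This order was not particular to the list, since Dntt, a pro-B marker outside it, had it too. Without control 55 Vpreb1, Igll1 and Itga5 passed as lower, at adjusted p-values of 0.00236, 0.00968 and 0.0293 by edgeR. Without control 69 their log2 fold changes were -0.45, 0.13 and 0.28, so that Igll1 and Itga5 changed sign, and Myc passed as higher (adjusted p of 0.00608 by edgeR). Cdk6, a kinase of the cell cycle, was at 0.05 ± 0.44 on the log2 scale, and at 0.81 without control 69.

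**Figure D4:**
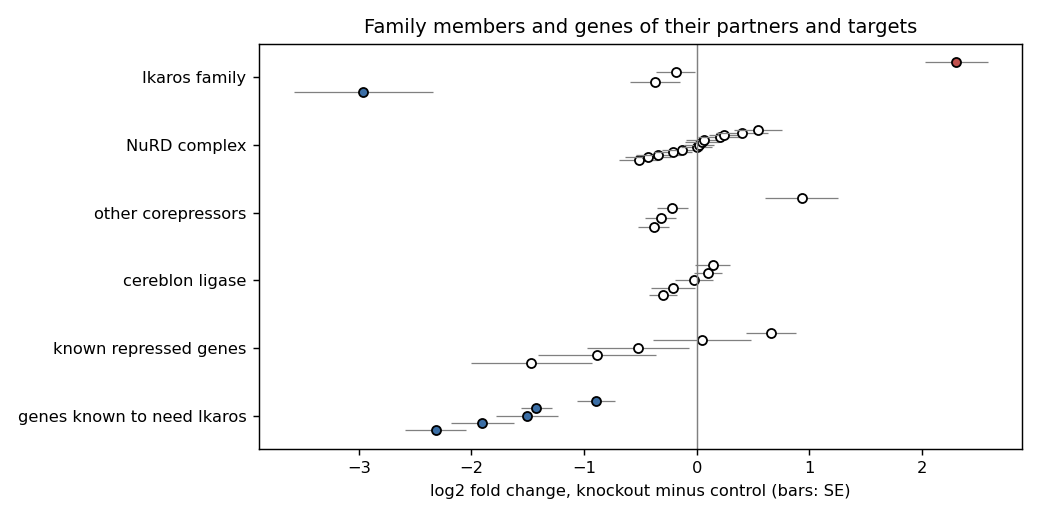
Log2 fold change, knockout minus control (x axis, bars SE), of the tested family members and of the genes of 5 lists (rows); red points passed as higher, blue points as lower and open points did not pass. All 5 genes known to need Ikaros lie between -2.32 and -0.90, while the points of the NuRD and cereblon ligase lists lie around 0.

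Markers of other cell types differed between the same libraries. Of all genes tested, 11.3% passed as higher in the knockout and 10.9% as lower. The list of 10 pro-B markers summed to 8350 CPM in control 55 and 10100 CPM in control 69, against 3090 CPM in knockout 51 and 2370 CPM in knockout 63, with 10 of 10 at 1 CPM or more in each mouse, and 7 of 10 fell. The label of pro-B cells thus had its markers in every library, with a lower sum in the knockouts. Vpreb1, Igll1 and Dntt did not pass, and for Igll1 and Dntt the genotypes overlapped. Control 69 had the most Dntt (1703 CPM), but control 55 (605 CPM) lay below knockout 51 (932 CPM) and knockout 63 (735 CPM). Igll1 was likewise highest in control 69 (990 CPM), while control 55 (326 CPM) fell between knockout 63 (295 CPM) and knockout 51 (419 CPM). The 6 plasmacytoid dendritic markers summed to 443 and 123 CPM in the controls and to 3810 and 5160 CPM in the knockouts, with 6 of 6 at 1 CPM or more in each mouse, and all 6 rose. Siglech, a surface lectin that defines these cells, was present at 194 and 28.3 CPM in the controls and at 1262 and 2305 CPM in the knockouts. The 6 conventional dendritic markers summed to 41.9 and 9.09 CPM in the controls and to 549 and 427 CPM in the knockouts, with 3 at 1 CPM or more in each control, 5 and 4 in knockouts 51 and 63, and Batf3 at 0 in control 55. Of these, 5 rose and Xcr1 did not pass. Granulocyte and erythroid markers moved the other way: 7 of 7 and 5 of 5 fell. The granulocyte list summed to 3150 and 2320 CPM in the controls and to 137 and 30.5 CPM in the knockouts, where Epx was at 0 in knockout 63, and the erythroid list to 56.2 and 49.5 against 1.63 and 3.42 CPM.

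The markers of the cells in which Helios is best known are given beside Ikzf2. The 10 T cell markers summed to 63.9 and 110 CPM in the controls and to 257 and 149 CPM in the knockouts, with 5 of 10 at 1 CPM or more in each control and 8 and 7 in the knockouts. Themis was at 0 in control 55 and Trat1 in control 69, and 2 of the 9 tested passed as higher, against 11.3% of all genes tested. All 9 had positive log2 fold changes, from 0.46 to 4.44 with a median of 2.69. Of the 9, 6 had an unadjusted p under 0.05 by edgeR, against 5107 of the 13507 genes tested. The member with the lowest adjusted p, the signalling chain gene Cd247, rose from 2.48 and 4.36 CPM in the controls to 29.8 and 18.9 CPM in knockouts 51 and 63. Cd3e, which defines T cells, was at 0.183 and 0.113 CPM in the controls and at 5.99 and 0.631 CPM in the knockouts. The 6 stem and early progenitor markers summed to 36.2 and 82.7 CPM in the controls and to 88.3 and 55.6 CPM in the knockouts, with 4 of 6 at 1 CPM or more in each mouse and Gata2 at 0 in both knockouts. Of the 5 tested, Cd34 rose and Gata2 fell. The 4 regulatory T cell markers summed to 154 and 60.0 CPM in the controls and to 31.4 and 40.7 CPM in the knockouts, with 3 of 4 at 1 CPM or more in each mouse. Tnfrsf18 rose, Il2ra fell and Ctla4 did not pass. Foxp3, the defining factor of these cells, had 2 to 4 counts in each mouse and was not tested. Il2ra made up most of the control sums, at 146 and 50.1 CPM, and was at 11.3 and 24.3 CPM in the knockouts. The 10 natural killer markers summed to 42.5 and 39.8 CPM in the controls and to 889 and 242 CPM in knockouts 51 and 63. In the controls 8 and 6 of 10 were at 1 CPM or more, and 10 in each knockout. Of the 10, 6 rose, against 11.3% of all genes tested. Without knockout 51 the log2 fold change of Ikzf2 was 2.15, but the natural killer sum was also higher in knockout 63 than in either control. The part of dendritic, natural killer, T or progenitor cell content in the rise of Ikzf2 was not tested.

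Beside Ikzf3, a list of 10 later B cell markers, chosen after the levels of Ikzf3 were seen, summed to 3120 CPM in control 55 and 1540 CPM in control 69, against 545 CPM in knockout 51 and 667 CPM in knockout 63, with 10 of 10 at 1 CPM or more in both controls and knockout 63 and 9 in knockout 51. Of these, 9 fell, against 10.9% of all genes tested, and Cd2 did not pass. Cxcr5, which encodes a chemokine receptor, was at 58.7 and 31.5 CPM in the controls and at 3.07 and 5.44 CPM in the knockouts. Among the controls the higher sum lay in control 55, as did the higher Ikzf3, but the list was chosen with the Ikzf3 levels known. Between the knockouts the order was the reverse of that of Ikzf3. Knockout 51, with more Ikzf3 than knockout 63, was also the library with more natural killer markers. The part of these cells in the level of Ikzf3 was not tested.

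**Figure D5:**
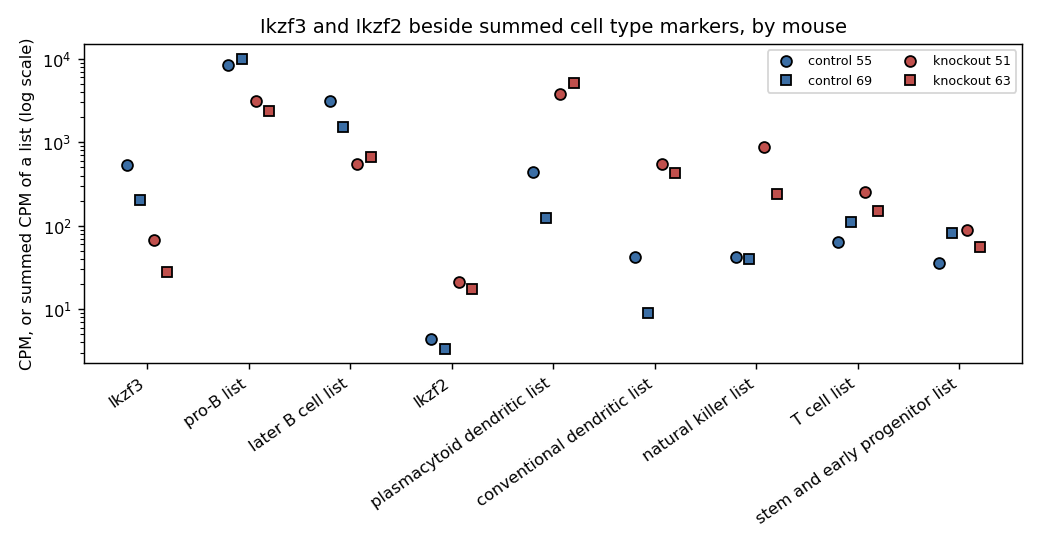
Level of Ikzf3 and Ikzf2 (CPM) and summed level of the marker lists (summed CPM) on a log axis, with 1 point per mouse (blue controls, red knockouts). Ikzf3 and the B-lineage lists are lower in both knockouts. Ikzf2 and the dendritic, natural killer and T cell lists are higher in both, while the progenitor list overlaps between the genotypes.

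The genes closest to each member over the 4 libraries were found by the Euclidean distance between log2 CPM centred per gene, among 9372 genes with a mean log2 CPM of at least 3. With 4 libraries such likeness is a description only. The 3 nearest to Ikzf1 were Tbc1d23, Rlf and Nemf, at distances of 0.0216 to 0.0474. Nearest to Ikzf5 were Zcrb1, Ibtk and Snx6, at 0.0184 to 0.0291. Nearest to Ikzf2 were Nfatc2, which encodes a calcium-regulated transcription factor, at 0.0643, and Rpgrip1 and Cst7, at 0.206 and 0.215. Nfatc2 was at 6.42 and 4.89 CPM in the controls and at 29.3 and 25.4 CPM in the knockouts. The genes closest to Ikzf3 were farther off: Rasgrp1, an activator of Ras, at 0.627, the ETS factor gene Ets2 at 0.667 and the DNA polymerase gene Polm at 0.737. Rasgrp1 was at 174 CPM in control 55 and 50.4 CPM in control 69, against 27.0 CPM in knockout 51 and 12.1 CPM in knockout 63, the same order of the 4 mice as for Ikzf3.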

How the data were processed

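The authors deposited raw counts for 24411 gene symbols as whole numbers. They also deposited normalized signal values, which are these counts multiplied by a factor for each library (0.816 to 1.22). The submitters' processing notes name the aligner STAR 2.7.4a, the counter featureCounts with Subread 2.0.0, and also SAMtools 1.10, deepTools 3.3.2, DESeq2 and the build GRCm38. The sources used here do not give the annotation, the strand setting or how reads with several alignments were handled. The labels' protocols name the NEBNext low input kit and no molecular identifiers, so counting intervals cover counting error only.

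The test was edgeR 4.0.16 in R 4.3.3. After filterByExpr (minimum count 10, minimum total 15) 13507 genes remained, TMM gave the scaling, and knockout was compared with control over all 4 libraries by the quasi-likelihood F test, with Benjamini-Hochberg adjustment over all genes tested and a threshold of 0.05. SE is the log2 fold change over the square root of F. No mouse number occurs in both genotypes, so the labels pair no samples, and sex is the only match used. On simulated data for knockout against control (13298 genes), 93 genes were changed 4-fold and 99 were changed 2-fold. The procedure recovered 80.6% of genes changed 4-fold and 19.2% of those changed 2-fold. Far more genes passed in the measured data (22.2% of 13507), so these rates need not hold there.

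Lengths, coordinates and sequences are from GENCODE M21 (GRCm38). The alternatives were DESeq2 size factors, no scaling, no filter, DESeq2 1.42.0, a filter requiring a mean of 50 counts and 1 CPM in 2 libraries, voom from limma 3.58.1 (limma-voom), limma on log2 of the deposited normalized signal plus 1, a block for sex (read from Xist and Y-linked genes, 1 female and 1 male per genotype), each library left out, and, for levels per kb, the longest transcript in place of all annotated exons. The members and lists were chosen with earlier results of these data known. Named genes were the members, Tnpo3, Trps1, the genes of each list with the lowest adjusted p (4 at most), and the 3 genes nearest to each member. Other genes, the later B cell list and Pstk were chosen after their values were seen.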

Additional observations from a re-analysis of the deposited data

How the results depend on the processing

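Over 12 alternatives the log2 fold changes of Ikzf1, Ikzf2, Ikzf3 and Ikzf5 kept their sign, and each stayed on its side of the threshold except Ikzf3. With each library left out in turn, Ikzf3 ranged from -3.73 to -2.06 and was lost without knockout 63 (-2.46, adjusted p of 0.0618 by edgeR), so that the number of members called lower ranged from 0 to 1. The cause was not tested. Over all alternatives Ikzf1 ranged from -0.59 to -0.09 (adjusted p of 0.0991 to 0.835), Ikzf5 from -0.31 to -0.07 and Ikzf2 from 2.12 to 2.55. Ikzf4, at 2.92 from the summed counts, could be tested in 4 alternatives, at 1.95 to 3.14, and passed in 0. Over all genes, with a library left out, 747 to 1649 were called higher and 530 to 1580 lower. With a block for sex 2137 genes were called higher and 2186 lower, and the adjusted p was 0.0038 for Ikzf2 and 0.0213 for Ikzf3. With the longest transcript as the length, the mean share of Ikzf1 in the family was 66.5% in controls and 86.2% in knockouts, that of Ikzf3 29.7% in controls, and that of Ikzf5 5.31% in knockouts. Leaving out 1 library assumes that the lone mouse of a genotype varies like the others. Mouse numbers pair no samples, so sex was the only block. Ikzf4 had 20 counts in all, below the filter.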
